A study of Rattus norvegicus with 4 samples.

Results

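Interferons are signalling proteins that cells release on sensing foreign nucleic acid or during immune activation, and the genes they switch on form a module that blocks viral replication and recruits lymphocytes. The module examined here holds 42 interferon response genes of the rat, taken by gene symbol from a list of interferon-induced genes, and all 42 were found among the 17899 genes of the table. All 42 also reached 1 TPM (a length-normalised share of a library's transcripts) in at least 2 libraries, the filter for testing. The rule used gene symbols and no measured value, but the list was chosen with earlier results of these data known. They were measured in synovium, the tissue lining the joint, from rats with osteoarthritis. AdMSC 1 came from synovium injected with human AdMSCs and SyMSC 1 from synovium injected with human SyMSCs, the labels' abbreviations for mesenchymal stem cells of different sources. PBS 1 (Ad-titled) and PBS 2 (Sy-titled) were labelled as injected with PBS, which is buffered saline, and served as controls. Their titles also hold the word mix, which is not explained in the sources used here. Collection of the synovium followed a day after cell injection. The osteoarthritis model, the strain, sex and age of the rats, the dose of cells and the number of animals behind a library were not given in the sources used here. A day is therefore the only time measured, and the cells are human cells in a rat host.

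In textbook accounts, RNA sensors of the RIG-I family and DNA sensors start the production of type I interferon. Signalling from the interferon receptor then leads to a complex with Stat2 and Irf9 that binds a promoter element called ISRE. Interferon gamma, made by T and NK cells, acts at an element called GAS and favours guanylate-binding GTPases and the chemokines Cxcl9, Cxcl10 and Cxcl11. In synovium, interferon response genes are best known from inflammatory arthritis, where fibroblasts, macrophages and endothelial cells express them.

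The libraries held between 12582 and 13155 genes at 1 TPM or more, and their read depth is unknown because TPM keeps none. Synovial fibroblast markers were present in every library, with the lubricin gene Prg4 between 2448 and 4192 TPM. Whether different animals stand behind the libraries is not in the labels, so a p-value covers only the spread among these 4, which may be technical. The injected group pools 1 library of each cell source, with no replicate of either. Its SD, and the spread behind each p-value, therefore also include any difference between the cell sources. In bulk tissue, fewer cells of a type and less RNA per cell cannot be told apart, and this holds for every level below. No step that separates rat from human reads is described in the sources used here. Whether the TPM of the injected libraries, Ifit1bl and the other rises included, hold reads of the human cells was not tested.

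The first comparison set the cell-injected libraries (AdMSC 1 and SyMSC 1) against the PBS libraries over these genes. The module did not move as 1 block: rises were called for 7 of 42 members and falls for 11, while 24 did not pass (limma on log2(TPM + 1), adjusted p under 0.05 over all 13371 genes tested). Over all genes tested 48.4% were called, 23.7% higher and 24.7% lower, beside 16.7% and 26.2% of the members. The share of members called lower is therefore near the background, and the share called higher is below it. The median log2 change was -0.14 over the members and 0.00087 over all genes tested. The 7 rises were Ifit1bl, Ifit1, Ifit3, Oas3, Oasl, Trim25 and Oas2. The 11 falls were Cxcl9, Mx2, Ifi44, Rtp4, Gbp5, Ddx58, Ifi27, Ifit2, Gbp2, Ifi44l and Bst2. Without each of the 4 libraries in turn, 11 of these 18 calls were made every time (3 rises and 8 falls), and 7 ended without at least 1 library. Both injected libraries lay above both PBS libraries for 11 members and below them for 15, where 39.5% and 39.4% of all genes tested did so. The other 16 members overlapped between the groups.

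**Figure D1:**
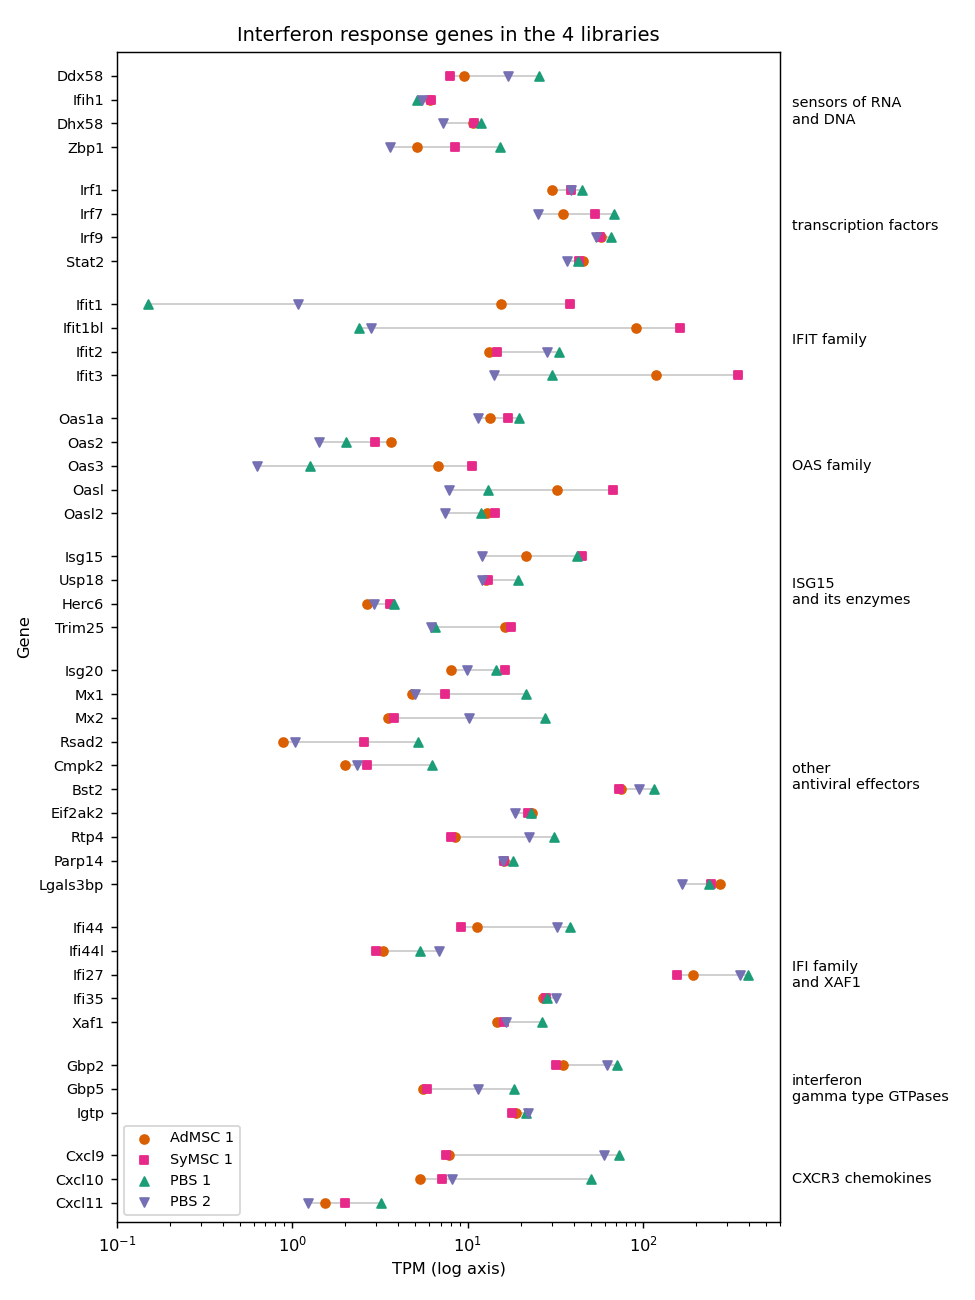
TPM of each of the 42 members on a log axis in AdMSC 1, SyMSC 1, PBS 1 and PBS 2, grouped by role, 1 point per library with a grey line from the lowest to the highest. Ifit1, Ifit1bl, Ifit3, Oas3 and Oasl have both injected libraries on the right, Cxcl9, Ifi44 and Rtp4 have them on the left, and for Mx1, Zbp1, Cxcl10 and Cmpk2 PBS 1 stands alone on the right.

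**Figure D2:**
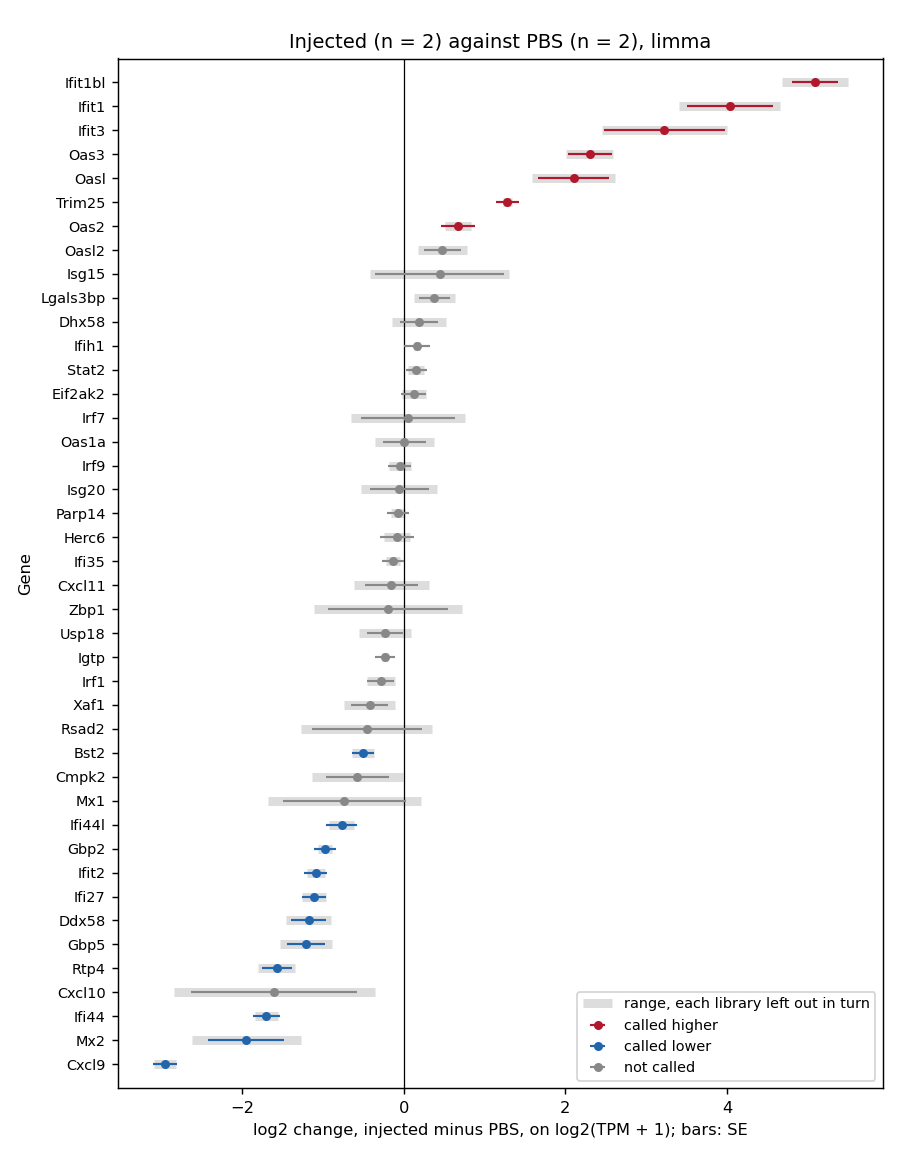
limma log2 change (injected minus PBS, n = 2 each, log2(TPM + 1) scale) of the 42 members with its SE, in order of size, and in grey the range when each library is left out. The 7 called rises run from 0.67 to 5.09 and the 11 called falls from -0.50 to -2.95, and 14 members that were not called cross 0 within the grey range.

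Promoters of many members hold the core of the element that carries the type I interferon signal. No sequence was used to choose the members. They do come from a list of interferon-induced genes, so the shares below describe that choice and are no independent result. RefSeq windows (assembly GRCr8, 250 bases before to 50 after an annotated start) were found for 32 of 42 members, with 33 windows because Ifit1bl has 2. Those without a window were Ddx58, Dhx58, Zbp1, Ifit1, Ifit2, Oas2, Isg15, Usp18, Mx2 and Rtp4. The ISRE core (GAAA, any 2 bases, GAAA), searched on both strands, stood in 21 of the 33 windows (63.6%), against 3.92% of all 33469 windows of that length. The form with any 3 bases between stood in 3 windows (9.09%, against 2.86% of all), and all 3 members also held the first form, which overlaps it in Ifit3 and Ifi44. The GAS core TTCNNNGAA stood in 9 windows (27.3%, against 8.87%). Of members with a window, 3 of 5 that rose, 6 of 7 that fell and 12 of 20 that were not called held the ISRE core. A match is a description of letters, not a site of binding. The 150 bases before the start follow for members that rose (Ifit3, Ifit1bl, Oas3, Trim25), fell (Ifi44, Gbp2, Cxcl9) or were highest in PBS 1 (Rsad2, Irf7), 5′ to 3′ on the strand of the gene, with matches to any of the 3 cores in capitals. They are shown because ISRE cores of like letters stand before genes that moved in opposite directions. Of the 2 windows of Ifit1bl, the one shown holds the ISRE core and the other holds none of the 3 cores.
Ifit3: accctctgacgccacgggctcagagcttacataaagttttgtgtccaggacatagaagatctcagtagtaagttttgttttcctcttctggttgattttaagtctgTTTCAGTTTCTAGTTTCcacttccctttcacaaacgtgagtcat
Ifit1bl: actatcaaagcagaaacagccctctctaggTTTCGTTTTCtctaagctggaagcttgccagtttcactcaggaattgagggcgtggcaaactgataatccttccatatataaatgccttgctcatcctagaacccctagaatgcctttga
Oas3: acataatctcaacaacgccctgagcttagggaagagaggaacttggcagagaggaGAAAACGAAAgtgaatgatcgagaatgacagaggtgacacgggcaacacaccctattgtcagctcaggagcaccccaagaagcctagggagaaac
Trim25: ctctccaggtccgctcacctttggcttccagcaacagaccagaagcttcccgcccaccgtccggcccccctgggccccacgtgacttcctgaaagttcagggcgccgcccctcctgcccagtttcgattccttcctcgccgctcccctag
Ifi44: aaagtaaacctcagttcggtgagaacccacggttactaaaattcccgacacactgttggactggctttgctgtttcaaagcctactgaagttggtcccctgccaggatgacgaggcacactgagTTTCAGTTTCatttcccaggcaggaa
Gbp2: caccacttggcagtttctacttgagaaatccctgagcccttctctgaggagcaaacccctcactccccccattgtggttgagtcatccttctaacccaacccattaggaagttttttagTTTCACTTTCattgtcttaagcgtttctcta
Cxcl9: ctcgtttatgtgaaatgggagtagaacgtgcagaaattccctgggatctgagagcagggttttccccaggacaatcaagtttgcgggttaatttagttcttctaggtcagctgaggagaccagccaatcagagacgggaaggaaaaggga
Rsad2: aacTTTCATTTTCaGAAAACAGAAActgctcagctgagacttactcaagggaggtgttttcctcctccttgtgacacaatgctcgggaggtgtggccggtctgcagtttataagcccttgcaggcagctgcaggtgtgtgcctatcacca
Irf7: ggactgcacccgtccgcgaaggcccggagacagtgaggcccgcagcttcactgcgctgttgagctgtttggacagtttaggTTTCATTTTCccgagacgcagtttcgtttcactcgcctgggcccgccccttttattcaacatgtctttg
Their places are chr1:241527176-241527325 (plus strand) for Ifit3, chr1:241543556-241543705 (minus strand) for Ifit1bl, chr12:41439582-41439731 (plus strand) for Oas3, chr10:74309874-74310023 (plus strand) for Trim25, chr2:243303841-243303990 (minus strand) for Ifi44, chr2:234005577-234005726 (plus strand) for Gbp2, chr14:16007016-16007165 (plus strand) for Cxcl9, chr6:48788121-48788270 (minus strand) for Rsad2 and chr1:205800024-205800173 (minus strand) for Irf7. Ifit3 and Ifi44 carry the same core letter for letter, starting 44 and 26 bases before the start. In the longer window Ifi44 also holds ISRE cores 19 and 26 bases after the start. Ifit3 had a log2 change of 3.23 and Ifi44 of -1.70, and the call of Ifit3 ended when some single libraries were left out. Trim25, which rose, and Cxcl9, which had the largest fall of the members, hold none of the 3 cores in these 150 bases, and Cxcl9 holds a GAS core 32 bases after the start in the longer window. The absence of a match says only that these letters are not in the window.

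The sensors that detect foreign nucleic acid were divided. Ddx58 (gene ID 297989), which encodes RIG-I, stood at 9.54 TPM in AdMSC 1 and 7.91 in SyMSC 1, against 25.5 in PBS 1 and 17.0 in PBS 2. The groups did not overlap, and it fell from 21.3 ± 6.01 to 8.73 ± 1.15 TPM (SD, n = 2; log2 change -1.17, SE 0.22, limma adjusted p = 0.00645). Ifih1 (gene ID 499801), a sensor of long double-stranded RNA, was nearly level, between 5.13 and 6.12 TPM in all 4 libraries (log2 change 0.17, SE 0.16, limma adjusted p = 0.42). Dhx58, which encodes a regulator of both sensors, lay between 7.17 TPM in PBS 2 and 11.9 TPM in PBS 1. Zbp1, a sensor of left-handed nucleic acid that can trigger cell death, stood at 15.3 TPM in PBS 1 and 3.60 TPM in PBS 2, with AdMSC 1 (5.10) and SyMSC 1 (8.40) between them. Of these 4 sensors Ddx58 alone was called, where 48.4% of all genes tested were.

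None of the 4 transcription factors was called, where 48.4% of all genes tested were. These factors carry the signal to the other genes, and the count at an unadjusted p under 0.05 is 0 of 4 as well. Stat2 (gene ID 288774) stood at 45.2 TPM in AdMSC 1 and 43.1 in SyMSC 1, against 42.4 in PBS 1 and 36.8 in PBS 2. Irf9 (gene ID 305896), its partner in the ISRE-binding complex, lay between 53.6 and 64.97 TPM. Irf1, a factor induced by interferon gamma, lay between 30.0 TPM in AdMSC 1 and 44.8 TPM in PBS 1. Irf7 (gene ID 293624), the factor that amplifies type I interferon production, varied most: 34.8 TPM in AdMSC 1 and 52.9 in SyMSC 1, against 67.8 in PBS 1 and 24.95 in PBS 2. The PBS libraries were thus its highest and its lowest (log2 change 0.06, SE 0.58, limma adjusted p = 0.946).

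The IFIT family held the largest rises of the module and a fall. IFIT proteins bind viral RNA that lacks host marks and block its translation. Ifit1bl (gene ID 294090) stood at 91.2 TPM in AdMSC 1 and 161 in SyMSC 1, against 2.40 in PBS 1 and 2.80 in PBS 2. It rose 48.6-fold in mean TPM, from 2.60 ± 0.283 to 126 ± 49.6 TPM (SD, n = 2; log2 change 5.09, SE 0.28, limma adjusted p = 0.000323). Ifit1 (gene ID 56824) stood at 15.5 TPM in AdMSC 1 and 38.1 in SyMSC 1, against 0.15 in PBS 1 and 1.08 in PBS 2 (log2 change 4.04, SE 0.53, limma adjusted p = 0.00535). Both injected libraries were far above both PBS libraries for each of these genes. Ifit3 (gene ID 309526) stood at 117 TPM in AdMSC 1 and 345 in SyMSC 1, against 30.2 in PBS 1 and 13.99 in PBS 2 (log2 change 3.23, SE 0.75, limma adjusted p = 0.0446). Ifit2 (gene ID 294091) went the other way, with 13.2 TPM in AdMSC 1 and 14.6 in SyMSC 1, against 33.1 in PBS 1 and 28.3 in PBS 2. It fell from 30.7 ± 3.41 to 13.9 ± 0.997 TPM (SD, n = 2; log2 change -1.09, SE 0.15, limma adjusted p = 0.00211). The call of Ifit1 ended without PBS 1 (limma adjusted p = 0.0506). That of Ifit3 ended without SyMSC 1 (0.0902), PBS 1 (0.124) or PBS 2 (0.193), the last with a log2 change of 2.70. These 4 genes stand next to each other in the RefSeq gene table of the assembly GRCr8, in the order Ifit2, Ifit3, Ifit1bl, Ifit1, and the span of Ifit1 lies inside that of Ifit1bl. Reads can be divided among such similar and overlapping genes, so each level is uncertain, the opposite direction of Ifit2 included.

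The OAS family rose or did not pass. OAS proteins make short oligoadenylates on meeting double-stranded RNA, which switch on a ribonuclease. Oas3 (gene ID 494202) stood at 6.75 TPM in AdMSC 1 and 10.6 in SyMSC 1, against 1.26 in PBS 1 and 0.63 in PBS 2 (log2 change 2.30, SE 0.27, limma adjusted p = 0.00147). Oasl (gene ID 304545), an OAS-like gene, stood at 32.2 TPM in AdMSC 1 and 67.1 in SyMSC 1, against 12.96 in PBS 1 and 7.77 in PBS 2 (log2 change 2.10, SE 0.44, limma adjusted p = 0.0208). For both genes every injected value lay above every PBS value. Oas2 (gene ID 363938) was low throughout, at 3.65, 2.96, 2.02 and 1.41 TPM in AdMSC 1, SyMSC 1, PBS 1 and PBS 2 (log2 change 0.67, SE 0.21, limma adjusted p = 0.039). Oas1a (between 11.4 TPM in PBS 2 and 19.5 TPM in PBS 1) and Oasl2 (between 7.43 TPM in PBS 2 and 14.3 TPM in SyMSC 1) did not pass. The direct neighbours Oasl and Oasl2 therefore differed, with mean TPM 4.79-fold and 1.40-fold higher after injection. That difference between the genes was not tested. Oasl was lost without PBS 1 (limma adjusted p = 0.0516) or PBS 2 (0.0981). Oas2 was lost without AdMSC 1 (0.166), SyMSC 1 (0.0799) or PBS 2 (0.173), and with no filter on low values (0.0625). These paralogs are similar enough for reads to be divided among them.

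Isg15 (gene ID 298693), a ubiquitin-like protein that is joined to other proteins and is a widely used marker of the interferon response, was not called. Its levels were 21.5 TPM in AdMSC 1 and 44.8 in SyMSC 1, against 41.7 in PBS 1 and 12.1 in PBS 2, so the groups overlapped (log2 change 0.44, SE 0.80, limma adjusted p = 0.686). Usp18 (gene ID 312688), the protease that removes ISG15 and dampens the receptor, lay between 12.0 TPM in PBS 2 and 19.3 TPM in PBS 1. Herc6, the ISG15 ligase of the mouse, stayed between 2.67 and 3.77 TPM. Neither passed. Trim25 (gene ID 494338), a ubiquitin ligase linked to RIG-I activation, rose in a tight pattern: 16.2 TPM in AdMSC 1 and 17.5 in SyMSC 1, against 6.52 in PBS 1 and 6.12 in PBS 2 (log2 change 1.29, SE 0.14, limma adjusted p = 0.00121). Outside the 42 members, the activating and conjugating enzymes for ISG15 fell. Uba7 went from 8.88 ± 2.298 to 3.33 ± 0.665 TPM (SD, n = 2; limma adjusted p = 0.0076) and Ube2l6 from 62.2 ± 6.28 to 33.9 ± 6.77 TPM (limma adjusted p = 0.00848). This pair was singled out after its values were seen.

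Among the other antiviral effectors 3 of 10 fell, 0 rose and 7 did not pass, and the share that fell is near the 24.7% of all genes tested. Rtp4 (gene ID 360733), an interferon-induced transport protein, stood at 8.47 TPM in AdMSC 1 and 7.99 in SyMSC 1, against 31.1 in PBS 1 and 22.4 in PBS 2 (log2 change -1.57, SE 0.18, limma adjusted p = 0.00141). Mx2 (gene ID 286918), a dynamin-like GTPase, stood at 3.48, 3.77, 27.5 and 10.2 TPM in the same order (log2 change -1.95, SE 0.48, limma adjusted p = 0.0297). Bst2 (gene ID 378947), tetherin, which holds budding virus at the cell surface, stood at 74.4, 72.8, 115 and 94.9 TPM (log2 change -0.50, SE 0.14, limma adjusted p = 0.0276). In each of these genes the injected libraries lay close together and the PBS libraries were higher and wider apart. Mx2 was lost without AdMSC 1 (limma adjusted p = 0.192) or SyMSC 1 (0.177), and Bst2 without AdMSC 1 (0.0638), SyMSC 1 (0.0808) or PBS 1 (0.187), and with no filter on low values (0.05003). Mx1 (gene ID 24575), the partner GTPase, reached 21.3 TPM in PBS 1 and lay between 4.79 and 7.35 TPM in the other libraries. Rsad2 (gene ID 65190), viperin, which makes a chain-terminating nucleotide, stood at 0.88, 2.56, 5.22 and 1.03 TPM in AdMSC 1, SyMSC 1, PBS 1 and PBS 2. Cmpk2, the nucleotide kinase that lies beside Rsad2 in the gene table and supplies its substrate, stood at 1.99, 2.67, 6.27 and 2.33 TPM in that order. For all of Mx1, Rsad2 and Cmpk2 PBS 1 was the highest library. Eif2ak2, the RNA-activated kinase PKR that stops translation, lay between 18.5 and 23.2 TPM and Parp14, an ADP-ribosyl transferase, between 15.9 and 18.0 TPM. Isg20, a ribonuclease, lay between 8.0 TPM in AdMSC 1 and 16.3 TPM in SyMSC 1. Lgals3bp (gene ID 245955), a secreted glycoprotein, was abundant in every library, at 274 TPM in AdMSC 1 and 242 in SyMSC 1, against 236 in PBS 1 and 165 in PBS 2, and was not called (limma adjusted p = 0.15).

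The members with IFI names, given for their induction by interferon, and Xaf1 were called lower or did not pass: 3 of 5 fell and 0 rose, beside 24.7% and 23.7% of all genes tested. Ifi27 (gene ID 170512), which encodes a small hydrophobic protein, was the most abundant member with PBS, at 393 TPM in PBS 1 and 356 in PBS 2, against 191 in AdMSC 1 and 156 in SyMSC 1 (log2 change -1.11, SE 0.15, limma adjusted p = 0.00216). Ifi44 (gene ID 310969) stood at 11.3 TPM in AdMSC 1 and 9.09 in SyMSC 1, against 38.3 in PBS 1 and 32.3 in PBS 2 (log2 change -1.70, SE 0.16, limma adjusted p = 0.000801). Its neighbour Ifi44l (gene ID 310968) stood at 3.27, 3.01, 5.34 and 6.82 TPM (log2 change -0.77, SE 0.19, limma adjusted p = 0.0181). In all 3 genes both injected libraries lay below both PBS libraries. Ifi44l was lost without AdMSC 1 (limma adjusted p = 0.0519), SyMSC 1 (0.0761) or PBS 2 (0.0957). Ifi35 lay between 26.6 and 31.9 TPM, and Xaf1, a gene that promotes apoptosis, between 14.7 TPM in AdMSC 1 and 26.3 TPM in PBS 1. Neither was called. Some genes outside the members whose names also mark induction by interferon went the other way: Ifi30, a lysosomal reductase of antigen processing, rose (log2 change 1.46, limma adjusted p = 0.000607). Ifi47, an immunity-related GTPase, rose too (log2 change 0.62, limma adjusted p = 0.0186), a call that ended without AdMSC 1 (0.0596), SyMSC 1 (0.0542) or PBS 2 (0.115). These were named after their values were seen.

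Of the 6 members in the GTPase and Cxcr3 chemokine groups 3 fell and 0 rose, beside 24.7% and 23.7% of all genes tested, and 3 did not pass. This holds for these members and not for all genes that interferon gamma induces, since Ifi30, Ifi47 and the factor Irf8 rose. Gbp2 (gene ID 171164), a GTPase that coats intracellular pathogens, stood at 34.9 TPM in AdMSC 1 and 31.8 in SyMSC 1, against 70.5 in PBS 1 and 62.2 in PBS 2 (log2 change -0.97, SE 0.13, limma adjusted p = 0.00232). Gbp5 (gene ID 362050), a GTPase tied to inflammasome activity, stood at 5.54, 5.86, 18.3 and 11.4 TPM (log2 change -1.21, SE 0.23, limma adjusted p = 0.00756). Igtp, an immunity-related GTPase, was nearly level, between 17.8 and 21.97 TPM. Cxcl9 (gene ID 246759), a ligand of the chemokine receptor Cxcr3 on T and NK cells, had the largest fall of the module: 7.76 TPM in AdMSC 1 and 7.46 in SyMSC 1, against 72.3 in PBS 1 and 59.6 in PBS 2. Its mean was 8.67-fold lower, 7.61 ± 0.212 against 65.96 ± 8.99 TPM (SD, n = 2; log2 change -2.95, SE 0.15, limma adjusted p = 0.000239). The injected libraries were nearly equal and far below both PBS libraries. Cxcl10 (gene ID 245920), another Cxcr3 ligand, stood at 5.30 TPM in AdMSC 1 and 7.10 in SyMSC 1, against 50.3 in PBS 1 and 8.16 in PBS 2. Its groups did not overlap either, but the difference rested on PBS 1 (log2 change -1.60, SE 1.03, limma adjusted p = 0.292; without PBS 1 the log2 change was -0.36). Cxcl11 stayed between 1.22 TPM in PBS 2 and 3.21 TPM in PBS 1. The 3 chemokine genes are direct neighbours in the order Cxcl11, Cxcl10, Cxcl9, and the receptor gene Cxcr3, named after its values were seen, was low, between 1.66 and 3.09 TPM. Levels of the similar Gbp genes, and of Mx1 and Mx2, are uncertain to the extent that reads were divided between copies.

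The second comparison set the PBS libraries against each other, which shows how far the module varied between libraries with the same treatment label. Whether the word mix in their Ad and Sy titles marks a further difference is not known. With 1 library a side there is no test, and genes were counted from a 2-fold ratio of TPM + 1 upward if 5 TPM or more was reached in either library. By this rule 9 of 36 members at the floor were lower in PBS 2 than in PBS 1 and 0 were higher, where 1.29% and 0.959% of all genes at the floor were. The 9 were Zbp1, Irf7, Ifit3, Isg15, Mx1, Mx2, Rsad2, Cmpk2 and Cxcl10. Their log2 ratios, PBS 2 over PBS 1, ran from -1.06 for Ifit3 to -2.49 for Cxcl10. PBS 1 had the higher value for 36 of 42 members (85.7%), against 54.3% of all genes tested, and was the highest of the 4 libraries for 25 members (59.5%), against 26.2% of all genes tested. Without PBS 1, 6 members were called higher and 10 lower (background 17.8% and 19.2%), and without PBS 2, 4 were called higher and 15 lower (16.5% and 19.8%). The members that joined the falls without PBS 2 were Mx1 (log2 change -1.68), Cxcl10 (-2.85), Cmpk2 (-1.13), Zbp1 (-1.11) and Xaf1 (-0.74). Those that joined the rises without PBS 1 were Oasl2 (log2 change 0.79) and Lgals3bp (0.63). Without PBS 1, Mx1 stood at 0.21 and Zbp1 at 0.72, so the direction of both depended on which PBS library was kept.

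Other contents of the tissue differed between the PBS libraries as well. The 8 erythroid and platelet genes summed to 21747 TPM in PBS 1 and 7721 TPM in PBS 2, and to 5362 TPM in AdMSC 1 and 11317 TPM in SyMSC 1. The 8 skeletal muscle genes summed to 1796 TPM in PBS 1 and 611 TPM in PBS 2, and the 8 adipocyte genes to 550.2 and 1583 TPM. The 8 markers of plasmacytoid dendritic cells, a main source of type I interferon, summed to 48.3 TPM in PBS 1 and 41.8 TPM in PBS 2. Ptcra and Ccr9 were under 1 TPM in every library. Tcf4 alone held 32.8 and 31.8 TPM of these sums, so they say little of the other markers. Siglech stood at 2.76 and 1.73 TPM and Spib at 2.78 and 0.66 TPM in PBS 1 and PBS 2. Tcf4, Siglech and Spib were named after their values were seen. The part of these contents in the difference between the PBS libraries was not tested.

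**Figure D3:**
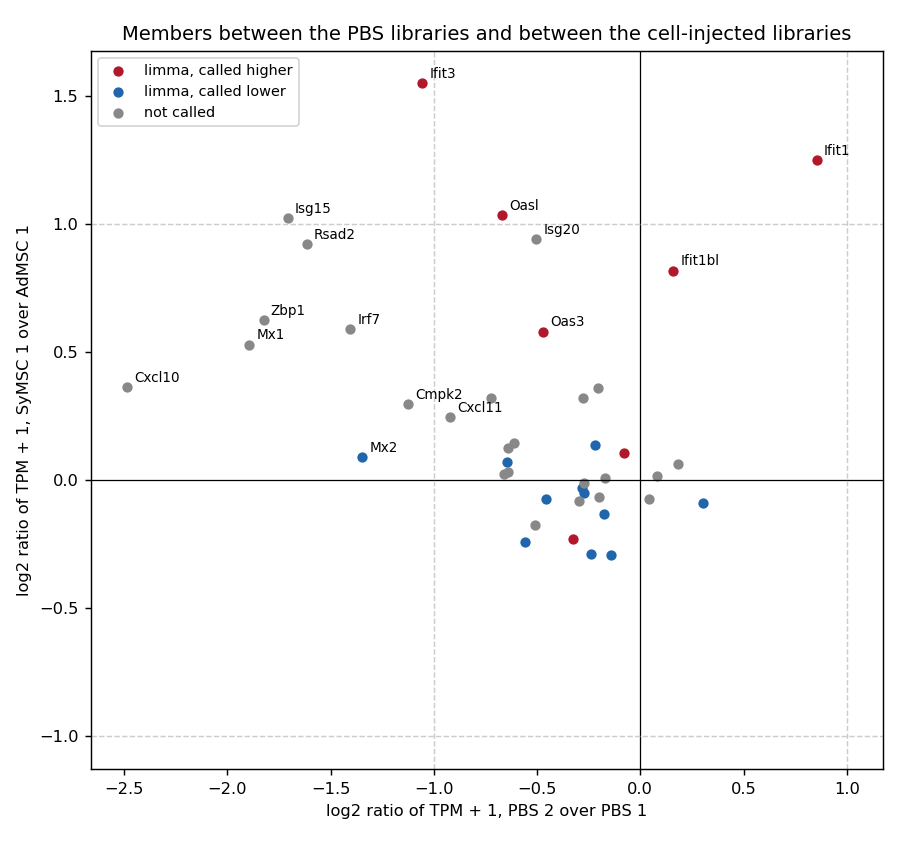
For each of the 42 members, the log2 ratio of TPM + 1 of PBS 2 over PBS 1 (horizontal) and of SyMSC 1 over AdMSC 1 (vertical), coloured by the limma call of injected against PBS, with dashed lines at 2-fold. Cxcl10, Mx1, Zbp1, Isg15 and Rsad2 lie far to the left, and Ifit3, Ifit1, Oasl and Isg15 lie above the upper dashed line.

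The third comparison took each cell source against the PBS library that shares its title word. AdMSC 1 lay at least 2-fold above PBS 1 in 6 and below it in 13 of 39 members at the floor, where 11.1% and 12.3% of all genes at the floor did so. SyMSC 1 lay above PBS 2 in 9 and below it in 6 of 37 members, where the shares of all genes were 12.9% and 15.1%. Ifit1, Ifit1bl, Ifit3, Oas3, Oasl and Trim25 lay past 2-fold higher in both pairs. Ifit3 had a log2 ratio of 1.92 for AdMSC 1 over PBS 1 and 4.53 for SyMSC 1 over PBS 2. Those of Oasl were 1.25 and 2.96. Cxcl9, Ifi44, Mx2, Rtp4, Ddx58 and Ifi27 lay past 2-fold lower in both pairs, with log2 ratios for Cxcl9 of -3.07 and -2.84. With the PBS libraries exchanged, AdMSC 1 lay below PBS 2 in 5 of 37 members at the floor and SyMSC 1 below PBS 1 in 11 of 39, where 12% and 15.4% of all genes at the floor did so. The differences between the arms have no replicate and were not tested.

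Against each other, SyMSC 1 lay at least 2-fold above AdMSC 1 in 4 of 35 members at the floor and below it in 0 (1.48% and 0.732% of all genes at the floor). The 4 were Ifit3, Ifit1, Oasl and Isg15, with log2 ratios of 1.55, 1.25, 1.03 and 1.02. The libraries with more of these transcripts also held more of some other cell contents: the 12 neutrophil markers summed to 2492 TPM in AdMSC 1 and 4255 TPM in SyMSC 1. Their part in this difference was not tested.

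Isg15, Irf7, Zbp1 and Isg20 moved in opposite directions, at least 1.5-fold down in AdMSC 1 against PBS 1 and up in SyMSC 1 against PBS 2, 4 of 37 members beside 0.294% of all genes at the floor. The opposite combination held for 0 members and 0.0758% of all genes. Isg15 had a log2 ratio of -0.92 in the first pair and 1.81 in the second, and Irf7 had -0.94 and 1.05. For Isg15, Irf7 and Zbp1 the levels of the injected libraries lay closer together than those of the PBS libraries.

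**Figure D4:**
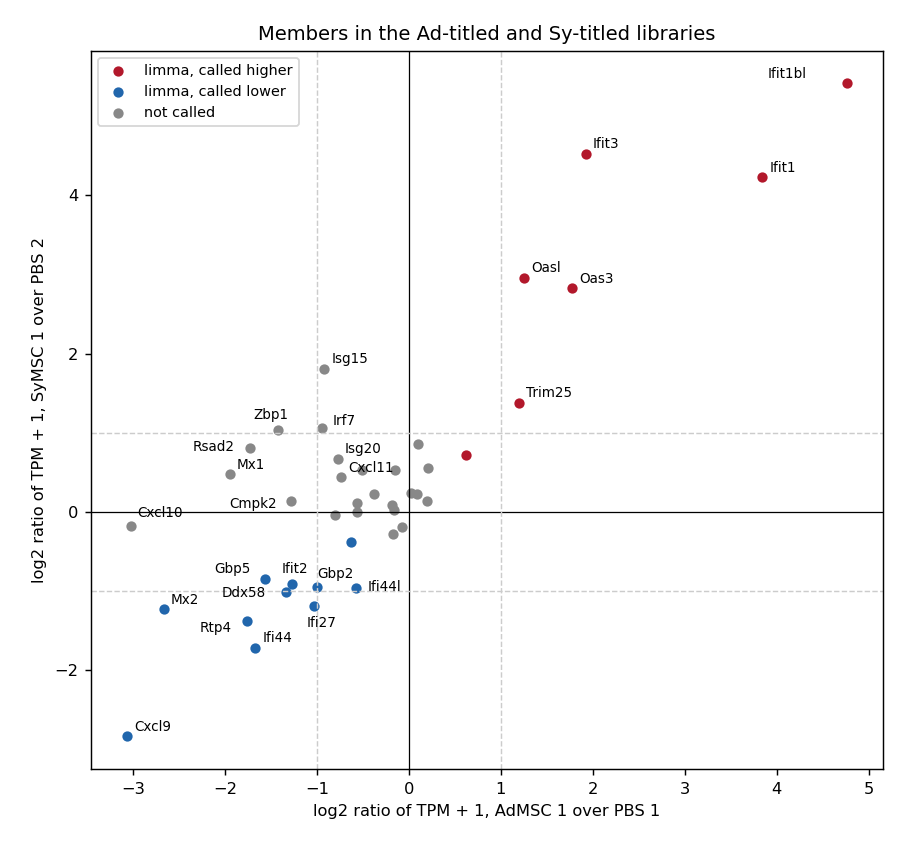
For each of the 42 members, the log2 ratio of TPM + 1 of AdMSC 1 over PBS 1 (horizontal) and of SyMSC 1 over PBS 2 (vertical), coloured by the limma call, with dashed lines at 2-fold. The called members lie in the upper right and lower left, with Ifit1bl at 4.76 and 5.42 and Cxcl9 at -3.07 and -2.84, and Isg15, Zbp1, Irf7 and Isg20 lie in the upper left.

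Other genes of the pathway were taken from lists made by function, with earlier results of these data known. Of 16 tested sensors and adaptors of nucleic acids 8 rose, 3 fell and 5 did not pass (median log2 change 0.59). Those named by the size of their change were Tlr7 (1.85), an endosomal RNA receptor, Aim2 (1.85), a DNA sensor of the inflammasome, Irf5 (1.36) and the adaptor Myd88 (1.07). Of 18 tested receptors and signalling genes 12 rose, 1 fell and 5 did not pass (median 0.65). They were led by the feedback inhibitor Socs3 (2.0), the phosphatase Ptpn6 (1.81), the receptor chain Ifngr2 (1.61) and the factor Irf8 (1.58). Of 60 tested further interferon-induced genes 13 rose, 9 fell and 38 did not pass (median 0.02), with Oas1k (4.15), the RNA helicase gene Mov10 (3.19), the death ligand gene Tnfsf10 (-2.97) and Apol3 (-2.05) named by the same rule. Over all genes tested 23.7% were called higher and 24.7% lower.

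Some genes of the chain were singled out after their values were seen. The type I receptor chain Ifnar1 rose from 45.4 ± 3.01 to 104 ± 4.45 TPM (SD, n = 2; limma adjusted p = 0.00103). Socs1, the feedback inhibitor of the interferon gamma receptor, fell from 21.8 ± 6.61 to 9.78 ± 1.59 TPM (limma adjusted p = 0.0117; 0.0651 without SyMSC 1). Of the interferons themselves Ifne was listed at no more than 0.07 TPM in any library. The others on the list, Ifnb1 and Ifng included, were not found by symbol among the genes listed, so their levels are unknown here.

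**Figure D5:**
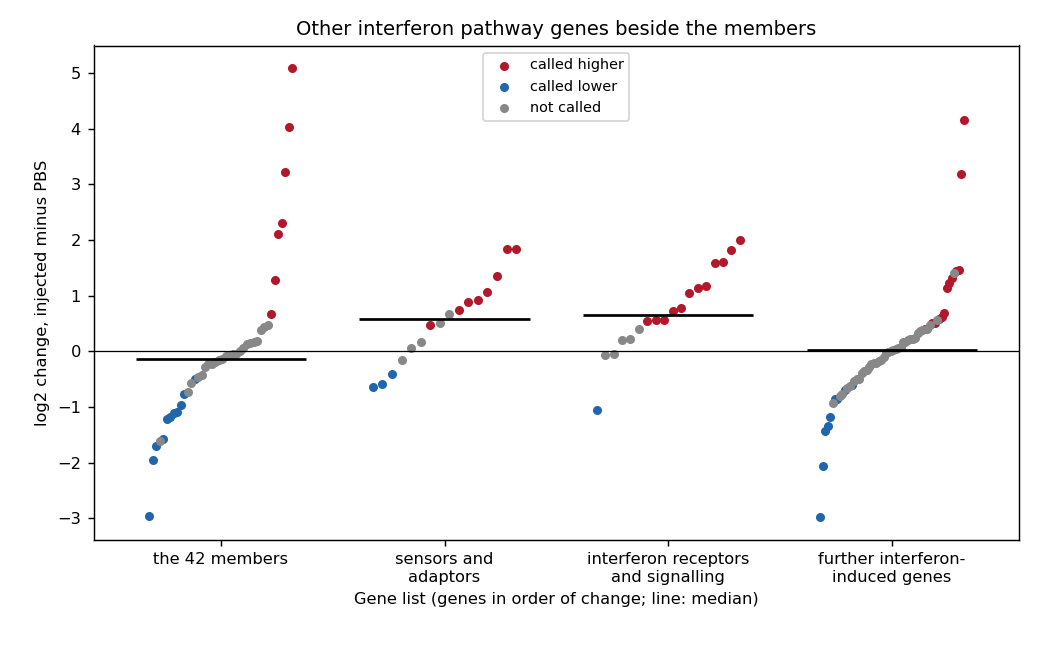
limma log2 change (injected minus PBS) of the 42 members and of the tested genes of the 3 other pathway lists, each list in order of change, with a line at its median and colours for the call. The medians are -0.14 for the members, 0.59 for sensors and adaptors, 0.65 for receptors and signalling and 0.02 for further interferon-induced genes.

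Levels of cell type markers differed between the injected and PBS libraries too. They stand beside the member changes without a test of their part in them. Of 11 monocyte and macrophage markers 9 rose and 0 fell, and their summed level was between 26524 and 35972 TPM after injection and between 10358 and 11831 TPM with PBS. Of 10 tested neutrophil markers 6 rose and 0 fell, with summed levels of all 12 between 2492 and 4255 TPM after injection and between 125 and 293 TPM with PBS, and with Ltf and Cxcr1 under 1 TPM in every library. Of 8 endothelial markers 7 fell, with sums between 209 and 253 TPM after injection and between 639 and 712 TPM with PBS. Of 11 synovial fibroblast markers 8 fell, with sums between 8906 and 13243 TPM after injection and between 22479 and 28720 TPM with PBS. Of 10 tested T and NK cell markers 6 rose and 1 fell, and Gzmb was under 1 TPM in every library. All 12 summed to between 403 and 464 TPM after injection and between 224 and 244 TPM with PBS. The rise of the sum lay largely in Cd8a (mean 117.4 TPM after injection, 4.455 with PBS), Cd2 (95.55, 10.7) and Cd8b (57.6, 4.31). Cd3e went from 5.30 to 10.2 TPM, and Cd4 fell from 190 to 122 TPM. Nkg7 and Prf1 had lower means after injection and were not called. These markers were named after their values were seen. Cxcl9, which attracts T and NK cells, was at its lowest levels in the same injected libraries. Cxcl10, which also attracts them, was not called, with 7.10 TPM in SyMSC 1 against 8.16 in PBS 2. A link between these chemokines and the markers was not tested. Of the 6 tested plasmacytoid dendritic cell markers 1 rose and 1 fell. The list summed to between 37.8 and 40.3 TPM after injection, of which Tcf4 held between 20.9 and 24.2 TPM. Of 6 tested dendritic cell markers 2 rose and 1 fell, with sums of 33.4 and 66.97 TPM after injection and 11.6 and 16.3 TPM with PBS, and with Xcr1 under 1 TPM throughout. The 4 tested B and plasma cell markers were not called (sums between 228 and 323 TPM in the 4 libraries, with Mzb1 under 1 TPM). Of 7 tested markers each, 2 skeletal muscle, 3 adipocyte and 1 erythroid or platelet marker fell and 0 rose. The muscle list summed to 121 and 167 TPM and the adipocyte list to 231 and 276 TPM after injection.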

How the data were processed

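Bulk RNA-seq was made from 4 libraries of rat synovium. Per the labels' protocols, polyadenylated RNA was selected on oligo-dT beads, the second cDNA strand was marked with dUTP and sequencing was on a BGISEQ-500. Expression was deposited by the authors as TPM per gene, per the file header. The submitters' processing notes name HISAT2 2.0.4 and Rnor_6.0 without a role for them. How human reads were treated, which gene model was used and whether counting used strand were not given in the sources used here. Because TPM sums to the same total in every library, read depth is unknown, and no counting interval or detection limit is given.

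From the TPM, log2(TPM + 1) was compared between injected (AdMSC 1, SyMSC 1) and PBS (PBS 1, PBS 2) libraries with limma 3.58.1 in R 4.3.3 (moderated test with trend and robust variance, 2 residual degrees of freedom), for the 13371 genes that reached 1 TPM in 2 or more libraries. Calls used a Benjamini-Hochberg adjusted p under 0.05 over all of these. The log2(TPM + 1) scale understates changes of low genes. Between single libraries a gene was counted from a ratio of TPM + 1 of 2 upward if either library reached 5 TPM, and nothing was tested. The procedure was tested on simulated data in which 200 of 13371 genes were changed. It recovered 24% of those with a log2 change of size 1 and 76% of those of size 2. Of its calls 3.85% were false. A gene that did not pass is therefore not shown to be unchanged. Alternatives were 2 scalings, 2 filters, a pseudocount of 0.1, the title word as a block, each library left out, and other floors and ratios.

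The members and the pathway and marker lists were chosen with earlier results of these data known. All members could be named; of each pathway list, up to 4 called genes with the largest absolute change were named, and marker lists were summarised. Genes named outside this rule are said to be. Promoter sequences, gene order and positions come from RefSeq tables of GRCr8, in which all 42 member IDs and 16718 of 17899 IDs of the table were found. No coordinates were converted between builds.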

Additional observations from a re-analysis of the deposited data

Results flagged for a closer look

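Members for which the Ad-titled and Sy-titled pairs moved opposite ways by at least 1.5-fold are listed here. Each pair is 1 library against 1, so the difference between the pairs was not tested. Isg15 had a log2 ratio of TPM + 1 of -0.9213 for AdMSC 1 over PBS 1 and 1.8097 for SyMSC 1 over PBS 2. Irf7 had log2 ratios of -0.9416 and 1.0546, and Zbp1 of -1.418 and 1.031. Isg20 had -0.7749 and 0.6697. For Irf7 and Zbp1 the highest and the lowest library were both PBS libraries.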

How the results depend on the processing

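Under median-ratio and upper-quartile scaling, a filter on mean TPM and a pseudocount of 0.1, 7 members were called higher and 11 lower as reported, and with no filter 6 and 10. With the title word as a replicate block 5 were called higher and 11 lower, Ifit3 (limma adjusted p = 0.0543) and Oasl (0.0525) being lost. The title words do not establish pairs: deviations of libraries of 1 title word had a correlation of 0.117 over 2 pairs. Leaving out each library gave between 4 and 6 higher calls and between 8 and 15 lower calls. Among members that were not called, direction changed for Oas1a under upper-quartile scaling (-0.041). The log2 change ranged over the left-out libraries from -0.14 to 0.52 for Dhx58, -1.11 to 0.72 for Zbp1, -0.65 to 0.76 for Irf7, -0.19 to 0.088 for Irf9, -0.35 to 0.37 for Oas1a, -0.41 to 1.30 for Isg15, -0.55 to 0.092 for Usp18 and -0.24 to 0.081 for Herc6. It ranged from -0.52 to 0.42 for Isg20, -1.68 to 0.21 for Mx1, -1.27 to 0.35 for Rsad2, -0.023 to 0.27 for Eif2ak2, -0.16 to 0.018 for Parp14 and -0.61 to 0.31 for Cxcl11. Between single libraries, a ratio of 3 left 7 of 39 members lower in AdMSC 1 than PBS 1 (5.59% of all genes at the floor), 2 of 37 lower in SyMSC 1 than PBS 2 (8.25%), 5 of 36 lower in PBS 2 than PBS 1 (0.652%) and 0 of 35 higher in SyMSC 1 than AdMSC 1 (0.426%). A ratio of 1.5 gave 10 lower in SyMSC 1 than PBS 2 (23.3% of all genes), 16 lower in PBS 2 than PBS 1 (3.26%) and 8 higher in SyMSC 1 than AdMSC 1 (4.42%). With the PBS libraries exchanged, AdMSC 1 was lower than PBS 2 in 5 members (12% of all genes) and SyMSC 1 lower than PBS 1 in 11 (15.4%). The cause of these changes was not tested. Depth is unknown, so nothing can be said of detection of low members such as Rsad2.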

Other observations

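Families outside the 42 members also held genes that moved in opposite directions, and those named here were singled out after their values were seen. The interferon-induced membrane proteins block virus entry and are among the most abundant interferon-induced transcripts of this tissue. Ifitm1 stood at 1263 TPM in AdMSC 1 and 1486 in SyMSC 1, against 531 in PBS 1 and 476 in PBS 2 and rose (log2 change 1.44, limma adjusted p = 0.000821). Ifitm3 stood at 2140 TPM in AdMSC 1 and 1554 in SyMSC 1, against 3368 in PBS 1 and 3258 in PBS 2 and fell (log2 change -0.86, limma adjusted p = 0.00913). In both genes the groups did not overlap. Ifitm2 also fell (log2 change -0.60, limma adjusted p = 0.0134), a call that ended without SyMSC 1 (0.07) or PBS 1 (0.0558).

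The Schlafen genes, regulators of T cell quiescence in the mouse and of viral RNA, were divided as well. Slfn2 stood at 145 TPM in AdMSC 1 and 224 in SyMSC 1, against 78.1 in PBS 1 and 74.7 in PBS 2 (log2 change 1.23, limma adjusted p = 0.00574). Slfn5 stood at 16.3, 14.4, 41.5 and 44.6 TPM in that order (log2 change -1.43, limma adjusted p = 0.000731). In the Oas1 group, Oas1k rose (log2 change 4.15, limma adjusted p = 0.00026), while Oas1b (log2 change -0.63, limma adjusted p = 0.117) and Oas1g (-0.77, 0.0662) did not pass. Each of these families holds similar genes between which reads can be divided.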
